A study of Mus musculus with 12 samples.

Results

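The interferon response and antigen presentation genes form a module of 40 genes, of which 38 were measured among the 18193 genes with a probe set of 1 gene symbol. Members were chosen by name, through probe sets whose platform symbol is exactly that of the gene, and the brightest probe set on average over the 12 arrays stood for a gene with several. Isg15 and Ifi44 had no probe set under exactly those symbols and have no value here. The measured members fall into 23 interferon-induced genes, 10 genes of the MHC class I pathway and 5 genes of the MHC class II pathway.

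The tissue was the auditory nerve in the modiolus, the bony core of the cochlea, of adult CBA/CaJ mice of both sexes aged 8 to 12 weeks. The right ear received ouabain, which blocks the pump that exchanges sodium for potassium and kills type I spiral ganglion neurons, at 3 mM on the round window niche for 60 min, and the left ear of treated animals was left untreated as control. The 4 groups of 3 arrays were control and ouabain-treated nerves 3 days after exposure, and control and ouabain-treated nerves 7 days after exposure. An array held the combined RNA of 2 modiolus preparations whose animals are not named, so p-values measure the spread between pooled samples. The control ear was not operated, so that surgery and ouabain cannot be told apart, and all controls shared the animals' exposure on the other side. Treated mice with a small shift of hearing threshold had been left out by the study.

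Interferons are secreted proteins that bind receptors on most cell types and act through JAK kinases and STAT transcription factors. Type I interferons switch on antiviral genes through a complex of STAT proteins with IRF9, which binds a DNA motif called the interferon-stimulated response element. MHC class I molecules sit on nearly all nucleated cells and show peptides cut by the proteasome to cytotoxic T cells, whereas MHC class II molecules are carried mainly by macrophages, dendritic cells and B cells and show peptides to helper T cells. Macrophages are known to enter the injured auditory nerve.

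The class I genes H2-D1 and Psmb8 rose after ouabain at both days, Nlrc5 at 3 days, and H2-K1 and Tap2 at 7 days, when 4 interferon-induced genes rose as well. H2-D1, a classical class I heavy chain, was 1.57-fold higher in ouabain-treated than control nerves at 3 days and 2.12-fold higher at 7 days, and Psmb8, a subunit of the immunoproteasome, was 1.68-fold and 1.90-fold higher. No interferon-induced gene passed the test at 3 days, and Irf1, Ifih1, Ifi35 and Gbp2 passed it at 7 days, with folds between 1.66 and 1.83. No class II gene passed at either day, although the 4 class II genes other than Ciita had fold changes of 1.48 to 1.65 at 7 days. The class I calls at 3 days did not hold in a t-test with adjusted p, and Nlrc5 was dim. Averaging the probe sets of a gene lost the calls of H2-D1 at both days and of Psmb8 at 3 days. A single control array carried interferon-induced genes far above the other controls at 3 days, and another carried class II genes above the other controls at 7 days, and the main results that rest on them are given with and without them.

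**Figure D1:**
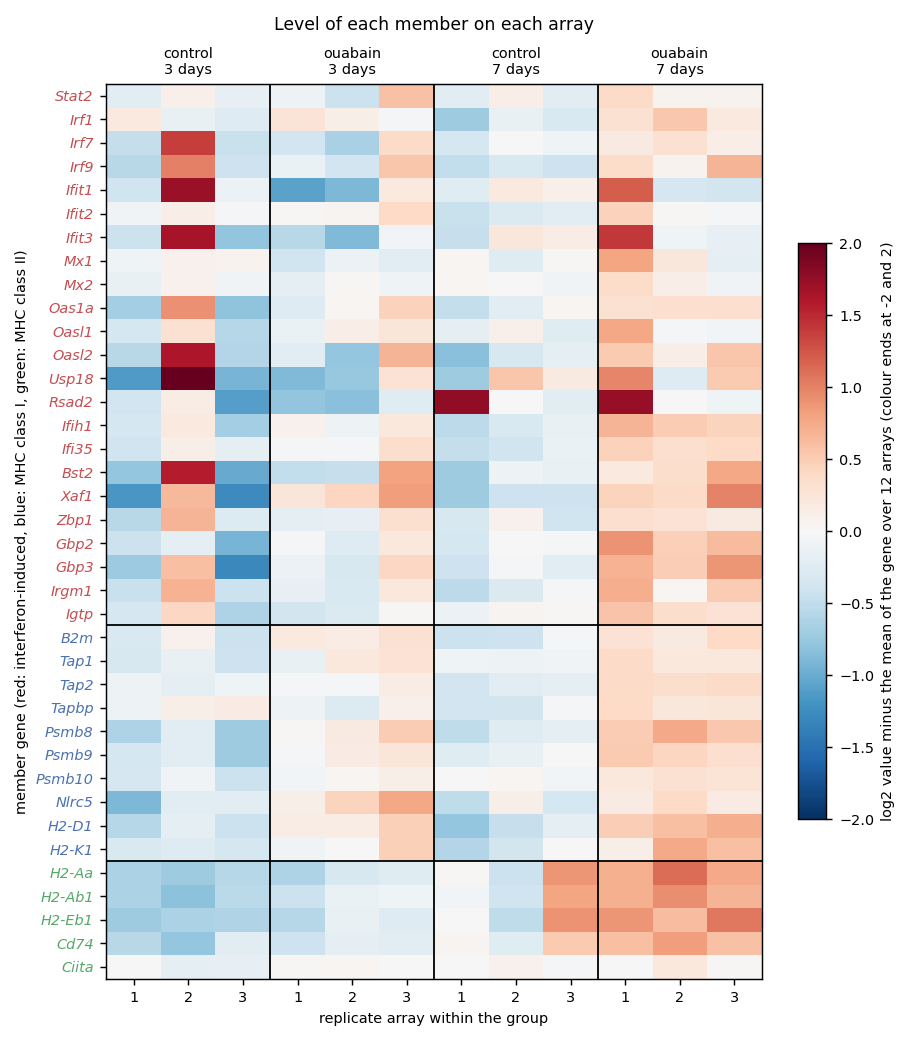
Each row is a member and each column an array, and colour gives the log2 value minus the mean of that gene over the 12 arrays. Control replicate 2 at 3 days shows a block of high interferon-induced genes, and control replicate 3 at 7 days is high in class II genes. The highest group mean is that of the ouabain-treated nerves at 7 days in 21 of 23 interferon-induced, 9 of 10 class I and 5 of 5 class II rows. The share of all genes with this order is not given here.

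The promoters of the members show which of them hold the motif that the STAT and IRF9 complex recognises. A RefSeq promoter was matched for 29 of the 38 measured members, and the 250 bases before the start were searched on both strands in the reference assembly GRCm38.p6, which is of C57BL/6J and not of the CBA/CaJ strain used here. The element was searched as GAAA, any base, any base and GAAA, which reads TTTC, any base, any base and TTTC on the other strand. It was present in 10 of 19 interferon-induced genes with a promoter (Stat2, Ifit1, Ifit3, Oas1a, Rsad2, Bst2, Gbp2, Gbp3, Irgm1 and Igtp), in 1 of 8 class I genes (B2m) and in 0 of 2 class II genes, against 3.46% of all 27025 genes with a promoter. The windows below are shown because these genes span the antiviral effectors, the GTPases and the light chain of class I, and capitals mark the element. Overlapping copies of the element run together in Bst2 and Irgm1.
Ifit1, chr19:34640773-34640825, plus strand: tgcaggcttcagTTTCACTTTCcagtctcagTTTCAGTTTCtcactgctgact
Bst2, chr8:71537575-71537614, minus strand: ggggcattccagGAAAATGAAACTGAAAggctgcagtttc
Rsad2, chr12:26456551-26456584, minus strand: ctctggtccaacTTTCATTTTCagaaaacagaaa
Gbp2, chr3:142620592-142620625, plus strand: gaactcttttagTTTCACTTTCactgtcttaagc
Irgm1, chr11:48871423-48871462, minus strand: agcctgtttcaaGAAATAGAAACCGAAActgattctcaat
Igtp, chr11:58199510-58199543, plus strand: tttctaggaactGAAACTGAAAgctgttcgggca
B2m, chr2:122147536-122147569, plus strand: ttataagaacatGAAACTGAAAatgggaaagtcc

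Class II promoters are known for an X2 box and an inverted CCAAT box, so the H2-Aa and H2-Eb1 windows are shown as well. Capitals mark the X2 letters TGACGTCA and the inverted CCAAT letters ATTGG, or CCAAT on the other strand.
H2-Aa, chr17:34287855-34287909, minus strand: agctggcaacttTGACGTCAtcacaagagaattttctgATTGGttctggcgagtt
H2-Eb1, chr17:34305796-34305848, plus strand: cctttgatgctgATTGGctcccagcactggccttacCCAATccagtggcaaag
The X2 letters stood in H2-Aa and in no other matched member, against 1.77% of all genes with a promoter, and the inverted CCAAT letters stood in both class II genes, in 6 of 8 class I genes and in 7 of 19 interferon-induced genes, against 37.5% of all genes. These are matches of letters and not measured binding.

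Replicate arrays were close over all probe sets, with array medians between 6.01 and 6.09 on the log2 scale and correlations of 0.992 to 0.995 between replicates. All 10 markers of spiral ganglion neurons fell after ouabain at both days (median log2 fold change -2.33 at 3 days and -3.27 at 7 days), and Schwann cell and neuron markers were bright in controls, so the tissue label and the treatment label held. The fall differed between ouabain replicates 1 to 3, with medians of -1.37, -2.86 and -2.82 at 3 days. At 7 days these were -2.28, -3.76 and -3.91. The part of this difference in the values of the members was not tested. All 12 macrophage markers rose at 3 days and 11 of them at 7 days. Of all genes 7.51% rose and 8.06% fell at 3 days, and 7.57% rose and 8.20% fell at 7 days. In whole tissue, fewer cells of a type and less RNA per cell cannot be told apart.

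Control replicate 2 at 3 days stood apart in the interferon-induced genes before any comparison with ouabain. Usp18, which removes ISG15 from proteins and damps the type I receptor, read 6.83, 10.10 and 7.03 on the log2 scale in control replicates 1 to 3 at 3 days. The gap of 3.06 between replicate 2 and the nearer control was the widest of all 18193 genes on that array. Ifit1, an RNA-binding antiviral protein, read 9.19, 11.31 and 9.48 in the same 3 arrays. Bst2, the protein tetherin that holds budding virus on the cell surface, read 8.12, 10.46 and 7.87. In each of these genes replicate 2 was high and the other two controls lay close together. Irf7, the factor that amplifies type I interferon production, read 6.32, 8.19 and 6.36.

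Replicate 2 was the highest of the 3 controls in 22 of the 23 interferon-induced genes, the exception being Irf1, against 33.5% of all genes. It lay more than 1 log2 unit above both other controls in 11 of the 23, against 0.236% of all genes. The median of the 23 was 1.10 above the mean of the other two controls, that of the class I genes 0.32 above, and that of the class II genes -0.10. Of the 20 genes with the widest gaps on that array, 8 were members (Usp18, Bst2, Oasl2, Ifit3, Ifit1, Irf7, Xaf1 and Oas1a). The others, named after their values were seen, included the interferon-induced genes Ifi44l, Rtp4 and Ifi27l2a, the class I gene H2-T24, and Tectb and Tecta, which encode proteins of the tectorial membrane.

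The macrophage markers on that array were also above the mean of the other controls, but their summed level was not above that of control replicate 3. All 12 lay above the mean of the other two 3-day controls, by a median of 0.37 and at most 1.03, so that their median excess was near that of the class I genes and under that of the interferon-induced genes. By the same measure the median excess was -0.03 in the 9 T cell, 7 NK cell and 7 B cell markers, -0.16 in the 7 dendritic cell markers and -0.20 in the 8 neutrophil markers. The summed level of the macrophage list was 12.3, 12.7 and 12.7 (log2) in control replicates 1 to 3, so that replicate 1 was the low one. Whether the macrophage markers had a part in the excess was not tested. The spread within groups was correspondingly wide in the interferon-induced genes, with a median SD of 0.65 among 3-day controls, 0.30 among 3-day ouabain arrays, 0.19 among 7-day controls and 0.23 among 7-day ouabain arrays, against 0.115, 0.122, 0.112 and 0.126 for all genes.

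**Figure D2:**
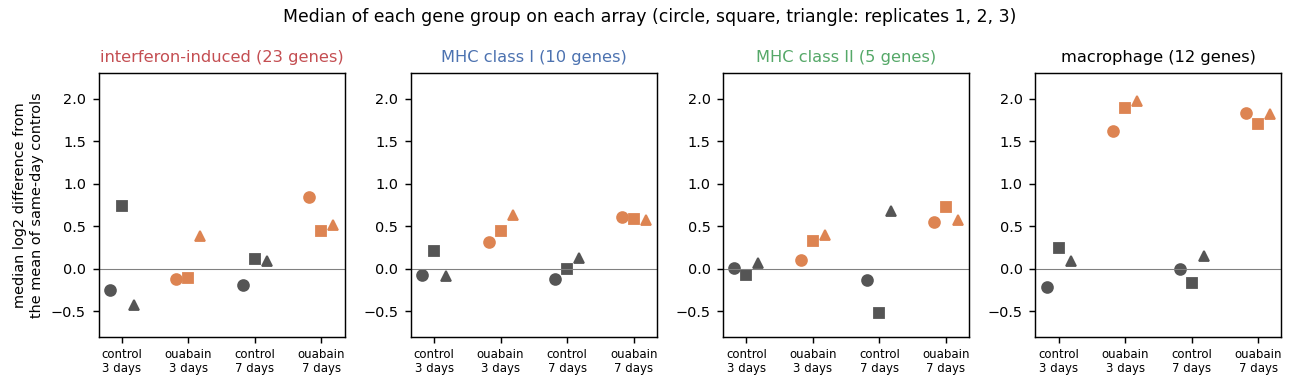
Each point is an array, and the height is the median, over the genes of a group, of the log2 value minus the mean of the same-day controls. Control replicate 2 at 3 days stands at 0.73 in the interferon-induced genes and at 0.25 in the macrophage markers, whereas the 3 ouabain arrays at 7 days lie between 0.57 and 0.61 in the class I genes.

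At 3 days the members were compared between ouabain-treated and control nerves, and 3 of the 38 rose and 0 fell, where 7.51% of all genes rose and 8.06% fell. A gene was counted as risen or fallen when its limma p, adjusted over all probe sets tested together, was under 0.05 and its fold change was above 1.5. All 3 were class I genes (3 of 10), and 0 of 23 interferon-induced and 0 of 5 class II genes passed in either direction. At an unadjusted limma p under 0.05, without the fold threshold, the counts were 2 of 23, 8 of 10 and 0 of 5 higher, against 20.1% of all genes, and 0 of 38 were lower, against 19.2%. The median log2 fold change was 0.02 in the interferon-induced genes, 0.43 in the class I genes and 0.24 in the class II genes, against 0.01 for all genes. All 3 ouabain arrays lay above all 3 controls in 0 of 23, 8 of 10 and 3 of 5 genes, where 22.4% of all genes had them so.

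At 7 days 8 of the 38 members rose and 0 fell, where 7.57% of all genes rose and 8.20% fell. These were 4 of 23 interferon-induced genes, which is 1 of 4 regulators, 2 of 15 effectors and 1 of 4 GTPases, and 4 of 10 class I genes, and 0 of 5 class II genes. At an unadjusted limma p under 0.05 the counts were 8 of 23, 10 of 10 and 4 of 5 higher, against 23.9% of all genes, and 0 of 38 were lower, against 18.3%. Every one of the 38 members had a fold change above 0 on the log2 scale, and in 26 of them all 3 ouabain arrays lay above all 3 controls, where 25.6% of all genes did so. The median log2 fold change was 0.48 in the interferon-induced genes, 0.57 in the class I genes and 0.66 in the class II genes, against 0.03 for all genes.

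**Figure D3:**
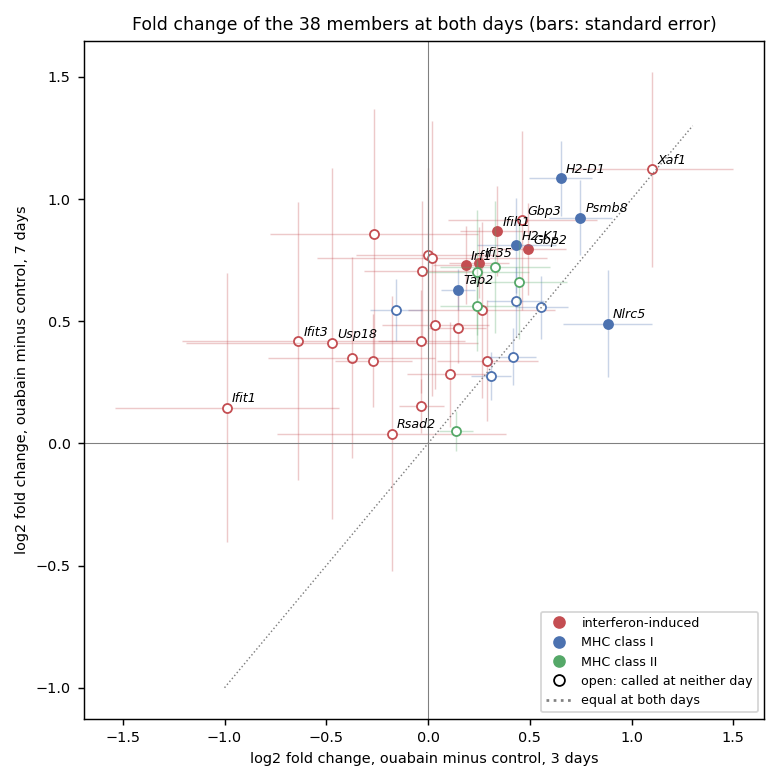
Each point is a member, with its log2 fold change of ouabain against control at 3 days on the x axis and at 7 days on the y axis, and bars give the standard error. Filled points passed the test at 1 day or both, all points lie above 0 on the y axis, and the interferon-induced genes have the widest bars.

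Among the 4 regulators Irf1, the interferon regulatory factor that drives class I and immunoproteasome genes, passed the test at 7 days. Irf1 read 8.01, 8.56 and 8.41 in the 7-day controls and 9.02, 9.24 and 8.90 in the 7-day ouabain arrays, so that the groups did not overlap. The log2 fold change was 0.73 (SE 0.16, limma adjusted p = 0.00493). At 3 days Irf1 read 8.91, 8.56 and 8.46 in controls and 8.97, 8.82 and 8.69 after ouabain, and the groups overlapped with a log2 fold change of 0.18. Without control replicate 1 at 7 days, the lowest of its group, Irf1 no longer passed (log2 fold change 0.57).

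Irf9, the DNA-binding partner of the STAT complex, read 7.54, 7.73 and 7.62 in 7-day controls and 8.40, 8.10 and 8.71 after ouabain. The groups did not overlap, and the log2 fold change of 0.77 (SE 0.35) did not pass (limma adjusted p = 0.141). At 3 days Irf9 read 7.48, 9.04 and 7.62 in controls and 7.91, 7.65 and 8.59 after ouabain, with a log2 fold change of 0.00. The wide error comes with the 9.04 of control replicate 2, as the 4 groups share 1 estimate of the spread, and without that array the 7-day difference of Irf9 passed (adjusted p = 0.023).

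Irf7 read 6.41, 6.14 and 7.19 after ouabain at 3 days, near the lower controls in replicates 1 and 2 and between them and control replicate 2 in replicate 3. Its log2 fold change at 3 days was -0.38 with all arrays and 0.24 without control replicate 2, and neither passed. At 7 days Irf7 read 6.45, 6.80 and 6.71 in controls and 6.98, 7.10 and 6.93 after ouabain, without overlap and with a log2 fold change of 0.35 (SE 0.41). Stat2, the STAT protein specific to the type I and type III response, was dim, at 4.88 to 5.89 over the 12 arrays. It read 5.08, 5.43 and 5.08 in 7-day controls and 5.69, 5.37 and 5.37 after ouabain, with overlap and a log2 fold change of 0.28 (SE 0.22).

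Many of the effectors act on viral RNA or proteins, and 2 of 15 effectors rose at 7 days, where 7.57% of all genes did. Ifih1, the cytosolic sensor of long double-stranded RNA known as MDA5, read 9.34, 9.56 and 9.72 in 7-day controls and 10.55, 10.38 and 10.31 after ouabain. Every ouabain array lay above every control, and the log2 fold change was 0.87 (SE 0.18, limma adjusted p = 0.00418). At 3 days Ifih1 read 9.52, 10.06 and 9.19 in controls and 9.95, 9.77 and 10.07 after ouabain, with overlap and a log2 fold change of 0.34.

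Ifi35, an interferon-induced leucine zipper protein, read 10.43, 10.51 and 10.78 in 7-day controls and 11.38, 11.26 and 11.31 after ouabain. The groups did not overlap, and the log2 fold change was 0.74 (SE 0.15, limma adjusted p = 0.00274). Of its 3 probe sets 2 passed at 7 days, with fold changes from 0.31 to 0.74 over the 3. At 3 days it read 10.52, 11.04 and 10.72 in controls and 10.88, 10.88 and 11.27 after ouabain, and the groups overlapped.

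Xaf1, a pro-apoptotic interferon-induced gene, had the highest fold change among the 38 members at both days and passed at neither. It read 7.69, 9.49 and 7.58 in 3-day controls against 9.09, 9.28 and 9.68 after ouabain, so that control replicate 2 alone reached the ouabain arrays. At 7 days it read 8.13, 8.43 and 8.42 against 9.29, 9.22 and 9.84, without overlap. The log2 fold change was 1.10 at 3 days (SE 0.40, limma adjusted p = 0.0692) and 1.12 at 7 days (SE 0.40, adjusted p = 0.0596). Without control replicate 2 at 3 days Xaf1 passed at both days, at 1.72 (adjusted p = 0.000186) and 1.12 (adjusted p = 0.0011). Its second probe set, dim at a mean of 4.78, gave 0.05 at 3 days and 0.41 at 7 days. The latter passed the adjusted p (limma adjusted p = 0.00812) but not the fold.

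The remaining effectors divided by how they varied within groups. Ifit2 passed the adjusted p at 7 days but not the fold (log2 fold change 0.47, limma adjusted p = 0.0268). Ifit1 and Ifit3 were high in 1 ouabain array at 7 days, with Ifit1 at 10.79, 9.25 and 9.21 and Ifit3 at 10.57, 9.06 and 8.99, so that in both genes ouabain replicate 1 alone lay above all 3 controls. Rsad2, the radical SAM enzyme viperin, read 10.64, 8.88 and 8.64 in 7-day controls and 10.62, 8.88 and 8.78 after ouabain, and replicate 1 was the high array in both groups. The log2 fold change of Rsad2 at 7 days was 0.04. Mx1 was at or near the floor of the array, at 3.44 to 4.63, and was the only member with all 3 ouabain arrays below the controls at 3 days, where 21.2% of all genes had them so (log2 fold change -0.27, limma adjusted p = 0.394).

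The 4 interferon-inducible GTPases guard vacuoles that hold microbes, and in all 4 every ouabain array lay above every control at 7 days, as in 25.6% of all genes. Gbp2, a guanylate-binding protein, read 9.88, 10.22 and 10.21 in 7-day controls and 11.13, 10.71 and 10.86 after ouabain. The log2 fold change was 0.80 (SE 0.19, limma adjusted p = 0.00783), and both of its probe sets passed. Gbp3 read 8.74, 9.11 and 8.95 in controls and 9.85, 9.66 and 10.05 after ouabain, a separation of the groups with a log2 fold change of 0.91 that did not pass (SE 0.37, adjusted p = 0.0917). At 3 days Gbp3 read 8.43, 9.76 and 7.87 in controls and 9.05, 8.84 and 9.57 after ouabain. Without control replicate 2 the 3-day difference of Gbp3 was 0.999 and passed (adjusted p = 0.00869). Irgm1 and Igtp stood at 0.71 and 0.42 on the log2 fold change scale at 7 days, and both at -0.03 at 3 days. Without control replicate 2 the 3-day values were 0.35 for Irgm1 and 0.27 for Igtp, and neither passed.

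**Figure D4:**
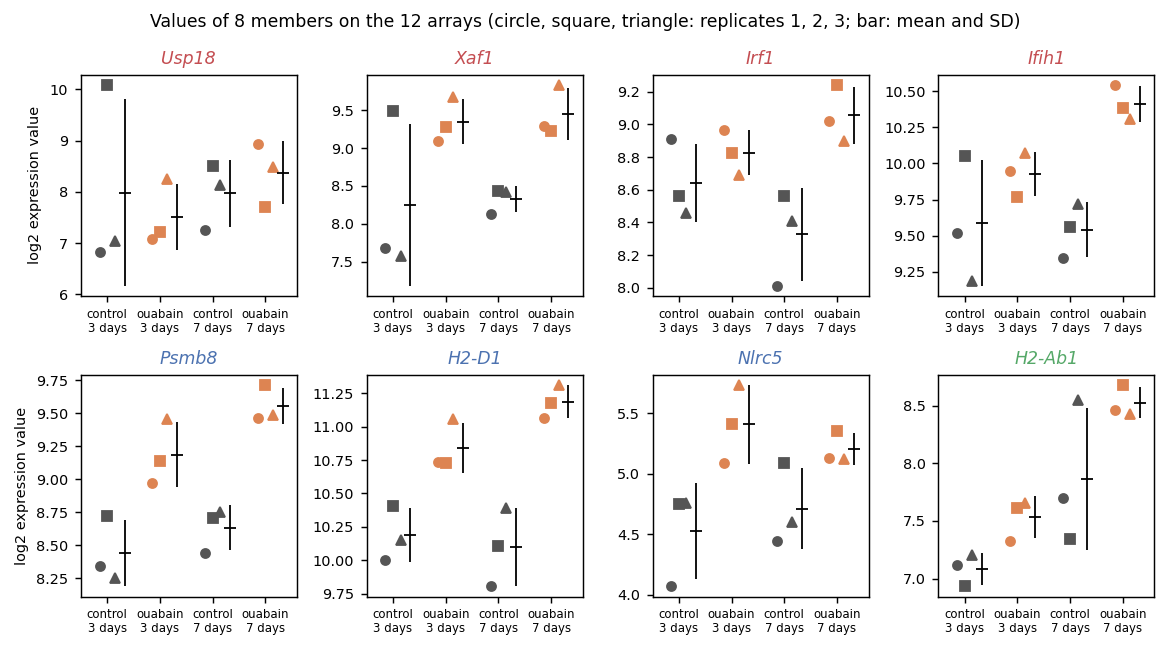
Each panel gives the log2 value of a member on the 12 arrays, with circle, square and triangle for replicates 1, 2 and 3 and a bar for the group mean and SD. In Usp18 and Xaf1 the square of the 3-day controls stands apart at 10.10 and 9.49, in H2-Ab1 the triangle of the 7-day controls reaches 8.55, and in Psmb8, H2-D1 and Nlrc5 no ouabain array falls to the controls of its day.

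With control replicate 2 at 3 days left out, 4 of 23 interferon-induced genes rose at 3 days (Gbp2, Gbp3, Oas1a and Xaf1), where 7.77% of all genes rose in that fit. The median log2 fold change of the 23 was then 0.39 and 21 of 23 were above 0, against 13 of 23 with all arrays. At 7 days 8 of 23 rose in that fit, adding Gbp3, Irf9, Irgm1 and Xaf1 to the earlier 4, against 7.55% of all genes. The 7-day fold changes of these 4 were the same and their errors smaller, as for Gbp3, whose SE was 0.37 with all arrays and 0.20 in that fit. Control replicate 2 had been singled out by the values of these same genes. Its removal was bound to raise most of their 3-day fold changes and lower their errors. The shares of all genes are therefore no measure of these counts. With each of the other 11 arrays left out in turn, the 3-day count stayed at 0. Oas1a, which makes the activator of RNase L, had log2 fold changes at 3 days of 0.26 with all arrays and 0.82 without that array (adjusted p = 0.0105), and Usp18 changed from -0.47 to 0.58.

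**Figure D5:**
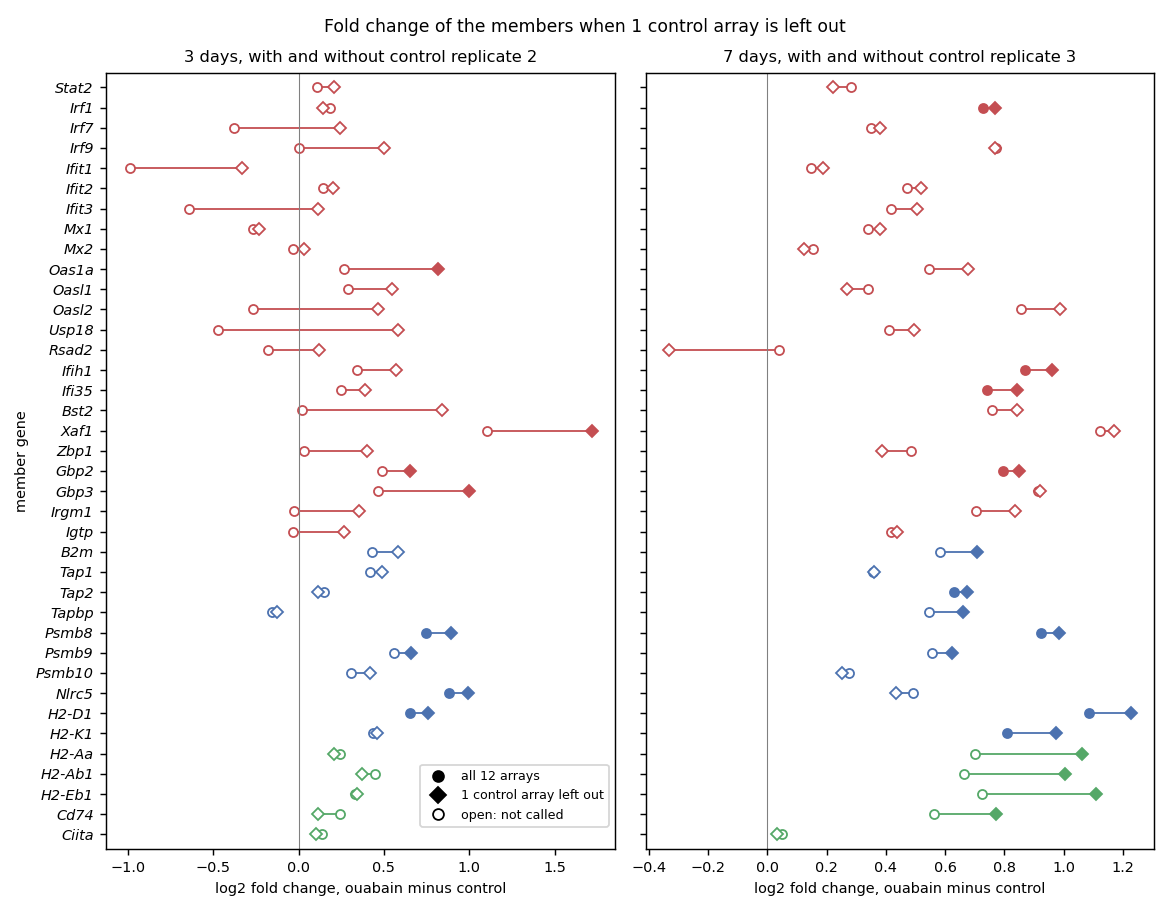
For each member, the circle gives the log2 fold change with all 12 arrays and the diamond the value without 1 control array, which is replicate 2 at 3 days on the left and replicate 3 at 7 days on the right, and filled symbols passed the test. On the left the interferon-induced genes other than Irf1 move to the right, as Usp18 does from -0.47 to 0.58, and on the right the class II genes other than Ciita do, as H2-Eb1 does from 0.72 to 1.11.

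The class I pathway cuts proteins, carries the peptides into the endoplasmic reticulum and loads them on heavy chains with B2m. Nlrc5, the transactivator of class I genes, read 4.07, 4.75 and 4.76 in 3-day controls and 5.08, 5.41 and 5.73 after ouabain. It was dim, but every ouabain array lay above every control, and the log2 fold change was 0.88 (SE 0.22, limma adjusted p = 0.0106). At 7 days Nlrc5 read 4.45, 5.09 and 4.60 in controls and 5.13, 5.36 and 5.12 after ouabain, and the log2 fold change of 0.49 (SE 0.22, adjusted p = 0.13) did not pass. The difference between the days was -0.39 (SE 0.31) and did not pass.

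Psmb8, the immunoproteasome subunit that replaces a constitutive one after interferon, rose at both days. It read 8.34, 8.72 and 8.25 in 3-day controls and 8.97, 9.14 and 9.46 after ouabain. It read 8.44, 8.71 and 8.75 in 7-day controls and 9.47, 9.72 and 9.49 after ouabain. The groups did not overlap at either day, and the log2 fold changes were 0.75 (SE 0.15, limma adjusted p = 0.00321) and 0.92 (SE 0.15, adjusted p = 0.000818). Its second probe set, dim at a mean of 3.58, had lower fold changes of 0.17 and 0.32. The partners Psmb9 and Psmb10 also separated the groups at both days with smaller changes, 0.56 at both days for Psmb9 and 0.31 and 0.28 for Psmb10, and did not reach the fold.

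Tap2, a subunit of the peptide transporter, read 8.37, 8.52 and 8.58 in 7-day controls and 9.13, 9.10 and 9.13 after ouabain. The log2 fold change was 0.63 with the smallest error of the members that rose (SE 0.08, limma adjusted p = 0.000166). At 3 days it read 8.65, 8.55 and 8.67 in controls and 8.71, 8.71 and 8.89 after ouabain, without overlap, but with a log2 fold change of 0.15. Without control replicate 1 at 7 days Tap2 was 0.57 higher and missed the fold. Tap1, the other subunit, was 0.42 and 0.36 higher and passed the adjusted p but not the fold. Its 4 probe sets ranged from -0.06 to 0.42 at 3 days, and those other than the brightest were dim, at means of 3.03 to 5.11. Tapbp, the tapasin that bridges transporter and heavy chain, stood at a log2 fold change of -0.16 at 3 days, which did not pass, and of 0.55 at 7 days, which missed the fold. For Tap2 the difference between days was 0.48 (adjusted p = 0.094) and for Tapbp 0.70 (adjusted p = 0.1).

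The heavy chain H2-D1 read 10.01, 10.40 and 10.15 in 3-day controls and 10.73, 10.73 and 11.05 after ouabain. At 7 days it read 9.80, 10.11 and 10.39 in controls and 11.07, 11.18 and 11.31 after ouabain. The groups stood apart at both days, with log2 fold changes of 0.65 (SE 0.15, limma adjusted p = 0.00813) and 1.09 (SE 0.15, adjusted p = 0.000262). H2-D1 has 9 probe sets, and those that did not pass at 7 days were dim, at means of 4.07 to 4.94. Of the 9, 1 passed at 3 days and 6 at 7 days, with fold changes from 0.03 to 1.09 at 7 days. Many end in _x_at, the mark of probes that can also match other class I genes, and class I alleles vary between mouse strains, so that values of single class I genes are uncertain in CBA/CaJ mice.

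H2-K1, the other classical heavy chain, read 7.61, 7.67 and 7.57 in 3-day controls and 7.83, 7.92 and 8.39 after ouabain, and 7.33, 7.54 and 7.93 in 7-day controls and 8.03, 8.68 and 8.52 after ouabain. No ouabain array overlapped the controls of its day. The log2 fold change was 0.43 at 3 days (SE 0.19, limma adjusted p = 0.146) and 0.81 at 7 days (SE 0.19, adjusted p = 0.00888). B2m, the light chain shared by class I molecules, was among the brightest signals at 12.22 to 13.05, and its log2 fold change was 0.43 (adjusted p = 0.044) at 3 days and 0.58 (adjusted p = 0.00915) at 7 days, just short of the fold.

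Without control replicate 1 at 3 days H2-D1 missed the call at 3 days. Without ouabain replicate 3 at 3 days, the highest of its group in all 10 class I genes, 1 of the 3 class I calls at 3 days remained, that of Psmb8. The same array was the highest of the 3-day ouabain group in 20 of 23 interferon-induced genes. Without control replicate 3 at 7 days, 7 of 10 class I genes rose at 7 days, adding B2m, Psmb9 and Tapbp, where 8.92% of all genes rose in that fit. With control replicate 2 at 3 days left out as well, 8 interferon-induced, 7 class I and 4 class II genes rose at 7 days, where 8.81% of all genes rose. Both arrays were singled out by values of members. Control replicate 3 was the highest 7-day control in 8 of 10 class I genes, against 33.3% of all genes. Its removal was bound to raise most class I fold changes too. The shares of 8.92% and 8.81% are therefore no measure of the class I, class II and interferon-induced counts. Without the fold threshold, 7 class I genes passed at 3 days and 8 at 7 days, against 15.0% and 17.2% of all genes.

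The class II genes were read with a control array that stood apart. H2-Aa, the alpha chain of I-A, read 8.42, 7.97 and 9.28 in 7-day controls and 9.11, 9.52 and 9.15 after ouabain. H2-Ab1, its beta chain, read 7.70, 7.35 and 8.55 in controls and 8.46, 8.68 and 8.43 after ouabain. H2-Eb1, the beta chain of I-E, read 6.93, 6.43 and 7.84 in controls and 7.82, 7.55 and 8.00 after ouabain. In all 3 genes control replicate 3 lay among the ouabain arrays, and the other two controls lay below all of them. The H2-Aa probe set ends in _x_at, and class II alleles vary between mouse strains too. Values of single class II genes are therefore uncertain in these mice as well.

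Control replicate 3 at 7 days was over 0.5 log2 units above both other controls in 3 of 5 class II genes, against 1.15% of all genes, and in 0 of 10 class I and 0 of 23 interferon-induced genes. Without that limit it was the highest control in 4 of 5 class II and 8 of 10 class I genes, against 33.3% of all genes. Among interferon-induced genes it was the highest in 6 of 23. The median of its class II genes was 1.03 above the mean of the other two controls, and that of its class I genes 0.19 above. By the same measure its macrophage markers had a median of 0.23, with 7 of 12 above 0, its B cell markers -0.38 and its neutrophil markers -2.07. The summed macrophage level was 12.71, 12.46 and 12.70 (log2) in 7-day control replicates 1 to 3. The summed neutrophil level ranged from 11.9 to 14.7 (log2) among the 7-day controls, and its part in the class II values was not tested.

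With all arrays the log2 fold changes at 7 days were 0.70 for H2-Aa (SE 0.25, limma adjusted p = 0.0647), 0.66 for H2-Ab1 (SE 0.23, adjusted p = 0.0581) and 0.72 for H2-Eb1 (SE 0.27, adjusted p = 0.0727). Cd74, the invariant chain that guards the class II groove, read 7.44, 7.15 and 7.92 in controls and 7.99, 8.23 and 7.99 after ouabain, the only class II gene without overlap. Its log2 fold change of 0.56 passed the adjusted p (0.041) but not the fold. Without control replicate 3, H2-Aa (1.06), H2-Ab1 (1.004), H2-Eb1 (1.11) and Cd74 (0.77) all passed, 4 of 5 genes against 8.92% of all genes. That array was singled out by the values of these same genes, so its removal was bound to raise their fold changes. The share of all genes is therefore no measure of this count. Without any other single array the count of class II genes at 7 days was 0.

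Ciita, the master regulator of class II transcription, was dim and passed at neither day. It read 5.29, 5.11 and 5.13 in 3-day controls and 5.31, 5.32 and 5.30 after ouabain, without overlap, with a log2 fold change of 0.14 (SE 0.08, limma adjusted p = 0.307). At 7 days it read 5.29, 5.37 and 5.27 in controls and 5.29, 5.50 and 5.31 after ouabain, with overlap and a log2 fold change of 0.05 (95% confidence interval -0.13 to 0.23).

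At 3 days the class II genes were lower in both groups than at 7 days. H2-Aa read 7.77, 7.69 and 7.82 in 3-day controls and 7.78, 8.08 and 8.15 after ouabain, and the 3-day log2 fold changes of the 5 class II genes ran from 0.14 to 0.45. The 7-day controls were higher than the 3-day controls by 0.80 for H2-Aa, 0.78 for H2-Ab1, 0.78 for H2-Eb1 and 0.62 for Cd74, and none of these passed (limma adjusted p between 0.6 and 0.66). Without control replicate 3 at 7 days these differences were 0.43, 0.44, 0.39 and 0.41. Over all 38 members 0 differed between the control groups after adjustment, while 0.0055% of all genes rose and 0.011% fell. At an unadjusted p under 0.05, 6 were higher and 2 lower at 7 days, where 4.01% and 3.92% of all genes were.

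The response to ouabain was also compared between the days, by the 7-day difference minus the 3-day difference in the same limma fit. None of the 38 members passed, where 0.247% of all genes passed as higher and 0.923% as lower, and at an unadjusted p under 0.05, 5 members were higher at 7 days and 0 lower, against 8.29% and 7.85% of all genes. The median difference was 0.49 in the interferon-induced genes, 0.16 in the class I genes and 0.32 in the class II genes. All 23 interferon-induced genes had a difference above 0, the highest being that of Ifit1 at 1.14 (SE 0.78, adjusted p = 0.6). With the 3-day control replicate 2 left out, the 23 had a median of 0.15, 16 of them were above 0, and Ifit1 stood at 0.48, while the class I median was 0.02. Without control replicate 3 at 7 days the class II median was 0.56. In neither fit did a member pass. Tap2 and Tapbp had the lowest adjusted p among the members.

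Genes upstream and downstream of the module were read from lists of other pathway genes. None of the 5 interferon ligand genes passed at either day, Ifnb1 and Ifng among them. Ifng stayed between 3.10 and 3.49 over the 12 arrays and Ifnb1 between 3.94 and 4.61, levels near the floor of the array. The log2 fold changes of the 5 lay between -0.20 and 0.09 at the earlier day and between -0.24 and 0.03 at the later one.

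Among 10 interferon receptors and kinases, 3 rose at 3 days and 2 at 7 days, against 7.51% and 7.57% of all genes, and 0 fell. Ifnar2, a chain of the type I receptor, was 0.85 and 0.70 higher (SE 0.08, limma adjusted p = 1.64e-05 and 6.72e-05). Socs3, a feedback inhibitor of JAK signalling that many cytokines induce, was 1.15 and 1.88 higher (SE 0.19), and Tyk2 was 0.65 higher at 3 days. Of 15 genes of nucleic acid sensing, 3 rose at 3 days and 6 at 7 days, against the same shares of all genes, and 0 fell. Tlr7, an endosomal sensor of single-stranded RNA, was 1.35 and 1.29 higher, and the adaptor Myd88 was 0.68 higher at both days. Ticam1 was 0.71 higher at 3 days, and at 7 days Trim25, a ligase of the RNA sensing pathway, was 0.85 higher. The kinase Tbk1, which acts downstream of these sensors, had every ouabain array below every control at both days, with a log2 fold change of -0.39 at each that passed the adjusted p (limma adjusted p = 0.00162 and 0.0018) but not the fold.

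Proteasome genes outside the immunoproteasome were read beside Psmb8. Of 8 constitutive proteasome genes 0 rose at either day, where 7.51% of all genes rose at 3 days and 7.57% at 7 days. At 3 days 0 fell, where 8.06% of all genes did, and at 7 days 1 fell, where 8.20% did. This was Psmb7 (log2 fold change -0.64, SE 0.15, limma adjusted p = 0.00624). All ouabain arrays lay below all controls in 6 of the 8 at 7 days, where 3742 of all 18193 genes had them so. Of 6 genes of class I loading and the PA28 activator, 0 passed at 3 days and 1 rose at 7 days, against the same shares of all genes. This was Psme1 (0.61, SE 0.09), an interferon-inducible activator subunit. Of 12 genes of class II peptide loading and costimulation, 3 rose and 1 fell at each day, against the same shares. Ctss, the protease cathepsin S that trims the invariant chain, was 1.22 and 1.71 higher, and Cd86, a costimulatory ligand, was 0.87 and 1.35 higher. Lgmn was 0.91 higher at 3 days, H2-Ob was 0.81 higher at 7 days, and Rfxap, a subunit of the factor that binds the X box, fell by 0.75 and 0.87.

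Among the lists of immune cell markers, the macrophage list had more than 1 gene that rose and the others had at most 1. Macrophage markers such as Cd68 and C1qa rose by a median of 1.84 at 3 days and 1.77 at 7 days, and the summed level of the list was 12.3 to 12.7 (log2) in 3-day controls, 14.1 to 14.4 in 3-day ouabain arrays, 12.5 to 12.7 in 7-day controls and 14.35 to 14.47 in 7-day ouabain arrays. Of 9 T cell markers and 8 neutrophil markers 0 passed at either day, and 1 of 7 NK cell markers (Gzmb) and 1 of 7 B cell markers (Cd22) rose at both days. Of 7 dendritic cell markers 0 rose and 1 fell, Flt3, at both days. Of all genes, 7.51% rose and 8.06% fell at 3 days, and 7.57% rose and 8.20% fell at 7 days. Counts of 0 or 1 in lists of 7 to 9 genes cannot be told from those shares. Of 8 endothelial markers 0 passed at either day, and their log2 fold changes had medians of -0.12 (3 days) and 0.39 (7 days), while 3 passed the adjusted p alone at 7 days, against 17.2% of all genes. The difference between the days was above 0 in all 8 endothelial markers, with a median of 0.43, and its part in the day differences of the module was not tested. Macrophages carry class I, class II and interferon-induced genes themselves, and the part of the macrophage markers in the changes of the module was not tested.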

How the data were processed

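Auditory nerve RNA of 12 pooled samples was hybridised to Affymetrix mouse arrays. The authors ran RMA in the Affymetrix Expression Console, which corrects background, quantile-normalizes the arrays and summarises probes, and made detection calls by MAS5 (versions not given in the sources used here). They deposited log2 values, which were used as they stand. The number of arrays limits the precision. The RNA input differs between the study's methods and the sample labels. Of 45101 probe sets 64 controls were left out and 45037 were tested. Quantile normalization fixes the overall distribution of each array, so values are relative to the other genes of the array.

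limma 3.58.1 (R 4.3.3) fitted the means of the 4 groups with empirical Bayes moderation, and tables and figures were made with Python 3.11.15. A probe set was called where its two-sided p, adjusted by Benjamini-Hochberg over every probe set tested, was under 0.05 and its fold change above 1.5. Only the fold threshold was that of the study's methods, which used an unadjusted p from a t-test. The study also estimated false discovery rates, by repeated comparisons with randomized groups. All p-values named adjusted are from limma, except those of the methods' t-test. The step was tested on simulated data. Groups and replicate numbers came from the sample titles. The members and lists were chosen with earlier results of these data known. Values on every array are given for members called at either day, the regulators, Nlrc5 and Ciita, and for up to 4 called genes of each other list the fold changes are given. Usp18, Ifit1, Ifit3, Bst2, Xaf1, Rsad2, Gbp3 and the class II genes besides Ciita were given per array after their values were seen, and Tbk1 was named after its values were seen. Alternatives were the methods' t-test without and with adjustment, separate fits of the 6 arrays of each day, a replicate block, no fold threshold, a fold above 2, dim probe sets left out (not above 6 in 3 arrays), a second quantile normalization, the 75th percentile subtracted, trend and robust moderation, averaged probe sets per gene, and each array left out. Promoter sequences are from RefSeq on GRCm38.p6.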

Additional observations from a re-analysis of the deposited data

How the results depend on the processing

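Quantile normalization applied again, centring on the 75th percentile and a trend with robust moderation kept each count of members called within 1.5 times. For 4 interferon-induced genes called at 7 days, the methods' t-test at an unadjusted p gave 10, separate fits of the 6 arrays of each day 10 and a fold above 2 gave 0. For 3 class I genes at 3 days, the methods' t-test with adjusted p gave 0, no fold threshold 7, a fold above 2 gave 0 and the mean over probe sets 1. For 4 class I genes at 7 days, no fold threshold gave 8 and a fold above 2 gave 1. For 0 class II genes at 7 days, no fold threshold gave 1 and leaving out dim probe sets 2. Without the fold threshold 15.0% of all genes rose at 3 days and 17.2% at 7 days. Shares of all genes are not given here for the t-test, the separate fits, a fold above 2, averaged probe sets or dim probe sets left out. Those counts show how calls move with the setting and are no result about the members. Without control replicate 2 at 3 days and control replicate 3 at 7 days together, chosen after seeing the data, 4 interferon-induced genes were called at 3 days and 8 at 7 days, 7 class I genes at 7 days and 4 class II genes at 7 days. With 1 array left out the counts ran from 0 to 4 and from 3 to 8 for interferon-induced genes at 3 and 7 days, from 1 to 4 and from 3 to 7 for class I, and from 0 to 0 and 0 to 4 for class II. Class II genes at 3 days, day differences and control comparisons gave 0 under every alternative run, and interferon-induced genes at 3 days gave 0 with the methods' t-test, adjusted or not. Apart from arrays left out, the cause of these changes was not tested.

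The replicate numbers were not taken as pairs, since the sources do not say whether equal numbers held ears of the same animals. Same-numbered arrays correlated in their deviations at 0.0892 to 0.334 at 3 days and 0.0189 to 0.277 at 7 days. These were below 0.1 in 2 of the 6 pairs, but 10 of the 12 arrays correlated best with their own number. The main fit may therefore ignore a real pairing. With the replicate number as a block 1 class II gene was called at 7 days, and no other count moved by over 1.5 times.

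Signs changed only among members that were not called. Without both arrays 8 members changed sign at 3 days, with log2 fold changes of 0.24 for Irf7, 0.58 for Usp18, 0.12 for Rsad2, 0.11 for Ifit3, 0.47 for Oasl2, 0.032 for Mx2, 0.35 for Irgm1 and 0.27 for Igtp, and the 7-day value of Rsad2 was -0.33. Subtracting the 75th percentile gave 0.0059 for Mx2, 0.011 for Irgm1 and 0.0064 for Igtp at 3 days, a second quantile normalization gave 0.0046 for Igtp at 3 days, and the mean over probe sets gave -0.043 for Ciita at 7 days. With 1 array left out the 3-day values ran from -0.69 to 0.24 for Irf7, -0.28 to 0.50 for Irf9, -0.17 to 0.33 for Stat2, -1.05 to 0.58 for Usp18, -0.043 to 0.82 for Oas1a, -0.51 to 0.12 for Rsad2, -1.11 to 0.11 for Ifit3, -0.45 to 0.84 for Bst2, -0.65 to 0.47 for Oasl2, -0.085 to 0.032 for Mx2, -0.22 to 0.40 for Zbp1, -0.22 to 0.35 for Irgm1 and -0.25 to 0.27 for Igtp. The 7-day values ran from -0.016 to 0.089 for Ciita, -0.56 to 0.67 for Rsad2, -0.37 to 0.42 for Ifit1 and -0.10 to 0.70 for Ifit3.

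The methods' t-test with adjusted p also lost Irf1, Gbp2 and H2-K1 at 7 days, and the mean over probe sets lost H2-D1 at both days and Psmb8 at 3 days. Each group holds 3 arrays of pooled RNA, and signals below about 6 are near the floor, which limits Nlrc5, Stat2, Mx1 and Ciita.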
